A study of Danio rerio with 9 samples.

Results

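The comparison of 8 with 0 hours post lesion (hpl) asks which RNAs of sorted Müller glia differ early after intense light. Of the 9 libraries of the series, 6 belong to it, 3 at 8 hpl and 3 at 0 hpl. Both groups were adult zebrafish of 8 to 11 months of the line Tg(gfap:EGFP)mi2002, whose transgene makes green fluorescent protein under the promoter of the glial filament gene gfap. The 8 hpl fish had 30 min of light of over 120000 lux, and the 0 hpl fish were unlesioned controls. Neural retinas were dissociated, and glia were collected by fluorescence sorting. Of the 33737 genes in the count table, 19875 had enough counts to be tested. The 3 libraries of 16 hpl entered the fit to share its estimate of spread. They also entered the filter on counts, which set the genes tested, and the scaling of the libraries.

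Müller glia are the radial glia of the retina. They buffer potassium, take up glutamate, recycle retinoids for cones and, in zebrafish, can divide after injury and give rise to neurons. Very bright light damages photoreceptors. It also acts on zebrafish cells directly, since many of them sense light and set their clocks by it. No unlesioned fish collected together with the 8 hpl fish is among the samples, so the lesion, the light itself and the hour of collection cannot be told apart. Nothing in the labels says that the 3 libraries of a group came from separate fish or pools, so p-values measure only the spread between these libraries, which may be technical.

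Libraries held 22549034 to 26608088 expected counts at 8 hpl and 17551981 to 21439636 at 0 hpl. On the leading principal component of log2 CPM (counts relative to the scaled library size), with 30.7% of the variance, 8 hpl replicates 1 and 3 lay at 53.3 and 63.5. Replicate 2 of 8 hpl lay at −32.5, beside the 0 hpl libraries at −43.3 to −35.1 and between 16 hpl replicates 1 and 3, at −15.05 and −43.1. One library of the other time point, 16 hpl replicate 2, lay at 92.2. On the next component, with 19.3% of the variance, 8 hpl replicate 2 lay at −25.5, near 16 hpl replicate 2 at −25.9. There 8 hpl replicates 1 and 3 lay at 19.5 and 22.8, the 0 hpl libraries at 29 to 51.4, and 16 hpl replicates 1 and 3 at −38.8 and −74.9. Over all genes tested, the root mean square log2 difference from the 0 hpl mean was 0.872, 0.830 and 0.931 in 8 hpl replicates 1, 2 and 3. Whether the libraries labelled 8 hpl replicate 2 and 16 hpl replicate 2 are exchanged cannot be told from the labels. If they were, every value of 8 hpl replicate 2 and every fold change and adjusted p below would change, and calls could change with them. The labels were kept as given.

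The labelled cell type was checked against marker genes, which say nothing of the time labels. For the 7 tested markers of Müller glia, CPM summed to 1756 to 1995 at 8 hpl and 1131 to 1760.0 at 0 hpl. None of the 7 was called by edgeR's test, with 1 higher and 1 lower at an unadjusted p under 0.05. DESeq2 called 1 lower and limma-voom 0. Log2 fold changes of the 7 ran from −2.15 to 0.95, with 4 positive, so the markers did not move together. gfap was at 69.7, 96.97 and 78.2 CPM at 8 hpl, against 60.3, 60.2 and 84.6 CPM at 0 hpl. Rod RNA outweighed these glial markers in every library: the 12 rod markers summed to 98034 to 102957 CPM at 8 hpl and 73287 to 124012 CPM at 0 hpl. Per length, in FPKM of the authors, gfap averaged 38.6 ± 6.51 at 8 hpl and 32.7 ± 7.16 at 0 hpl (SD, n = 3 each). In such bulk RNA, fewer cells of a type and less RNA per cell cannot be told apart.

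In all, 563 genes passed the threshold, an adjusted p under 0.05 in edgeR's quasi-likelihood test with Benjamini-Hochberg adjustment over all genes, from which every adjusted p below comes. They were 2.83% of the genes tested: 378 were higher at 8 hpl (1.9%) and 185 lower (0.931%). Rises were larger than falls, with median log2 fold changes of 1.71 and −1.34. At least 4-fold changes numbered 137 among the rises and 30 among the falls, and at least 8-fold changes 62 and 8. The mean at 0 hpl was under 1 CPM in 46 of the rises, and the mean at 8 hpl in 8 of the falls. Fold changes against so low a level are imprecise. Of the 563 genes, 562 had 8 hpl libraries that did not overlap with the 0 hpl libraries, while over all genes tested 13.9% had all 8 hpl libraries above and 12.9% had them below.

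Leaving out 1 library moved the number called to between 95, without 0 hpl replicate 1, and 1320, without 16 hpl replicate 2. It was 125, 1283 and 119 without 8 hpl replicate 1, 2 or 3, 112 and 153 without 0 hpl replicate 2 or 3, and 322 without 16 hpl replicate 1. All 563 genes kept their direction in each of these 9 fits, and 82 of them, 67 higher and 15 lower, were called in each. A further fit, chosen after seeing the data, left out 8 hpl replicates 1 and 3 and 16 hpl replicate 2. They lay highest on the leading component and are called the 3 libraries that stand apart below. Within 8 hpl, though, it is replicate 2 that lies away from the other libraries of its group. In that fit 1 library stands for 8 hpl, so counts of calls from it are no check of the calls. The 563 genes kept their direction in it, with a median absolute log2 fold change of 1.23. Without 8 hpl replicate 2 and 16 hpl replicate 2 together, a fit also chosen after seeing the data, 4125 genes were called, 2096 higher and 2029 lower, and they held all 563 with their directions.

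**Figure D1:**
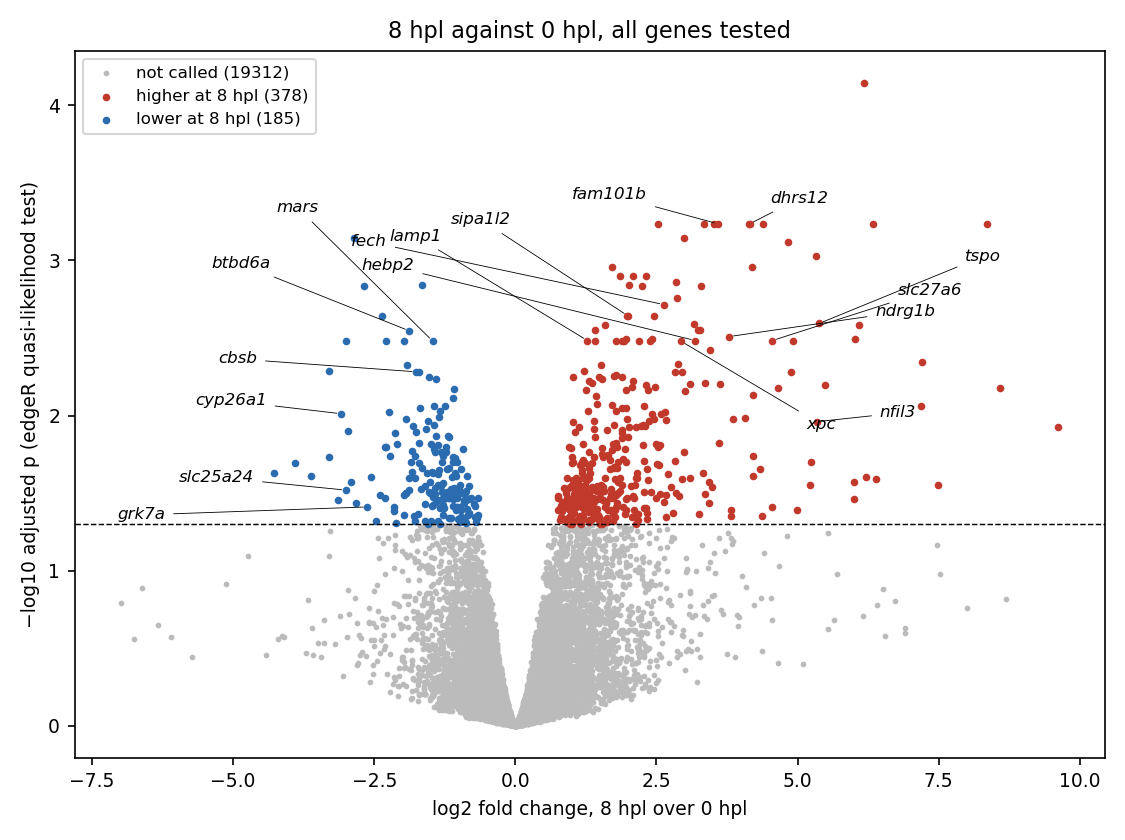
Each point is 1 of the 19875 genes tested, with the log2 fold change of 8 hpl over 0 hpl on the horizontal axis and −log10 of the adjusted p on the vertical axis. The dashed line is the threshold of 0.05, and the 378 genes called higher reach further from 0 than the 185 called lower.

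The 82 genes called in each of the 9 fits included several of cell metabolism and structure. dhrs12, for a member of the short-chain dehydrogenases, was at 297, 206 and 300.3 CPM at 8 hpl, against 17.3, 14.1 and 13.9 CPM at 0 hpl (log2 fold change 4.15 ± 0.33 SE, adjusted p = 5.81e-04). ndrg1b, of the N-myc downstream-regulated family, stood at 410.4, 309.7 and 435 CPM at 8 hpl, against 25.3, 25.8 and 32.3 CPM at 0 hpl (log2 fold change 3.79 ± 0.45 SE, adjusted p = 0.00309). slc27a6, for a fatty acid transport protein, was at 42.8, 12.9 and 41.7 CPM at 8 hpl, against 1.203, 2.19 and 0.695 CPM at 0 hpl (log2 fold change 4.55 ± 0.55 SE, adjusted p = 0.00328). For these 3 genes every 8 hpl library lay far above every 0 hpl library, although replicate 2 was the lowest of the 8 hpl libraries each time.

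fam101b, for a refilin, a partner of the actin crosslinker filamin, had 17.3, 25.2 and 27.5 CPM at 8 hpl, against 2.41, 2.1 and 1.28 CPM at 0 hpl (log2 fold change 3.59 ± 0.30 SE, adjusted p = 5.81e-04). On the log2 scale, sipa1l2, for a Rap GTPase-activating protein, rose by 1.99 (adjusted p = 0.00227). klf11a, for a Krüppel-like factor, rose by 1.52 (adjusted p = 0.00471) and slc23a2, for a vitamin C transporter, by 1.88 (adjusted p = 0.00566). lamp1, for a protein of lysosomal membranes, was at 103, 113 and 121 CPM at 8 hpl, against 51.5, 42.04 and 45.8 CPM at 0 hpl (log2 fold change 1.28 ± 0.16 SE, adjusted p = 0.00328), so that its 3 libraries of 8 hpl were close together and all above 0 hpl. slc38a3a, for a glutamine transporter that glia use to export glutamine to neurons, was likewise even, with 141, 122.8 and 119 CPM at 8 hpl, against 48.7, 55.05 and 39.5 CPM at 0 hpl (log2 fold change 1.42 ± 0.17 SE, adjusted p = 0.00328).

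The falls that held in each of the 9 fits were of other kinds. btbd6a, for an adaptor of a cullin ubiquitin ligase, had 26.1, 38.2 and 26.2 CPM at 8 hpl, against 116, 117 and 99.7 CPM at 0 hpl (log2 fold change −1.88 ± 0.22 SE, adjusted p = 0.00284). pcbd1, for an enzyme that recycles the pterin cofactor of aromatic amino acid hydroxylases, had 3.56, 4.70 and 3.09 CPM at 8 hpl, against 13.97, 12.6 and 16.3 CPM at 0 hpl (log2 fold change −1.91 ± 0.25 SE, adjusted p = 0.00476). pip5k1ba, for a kinase that makes a membrane phosphoinositide, fell by 1.71 on the log2 scale (adjusted p = 0.00522). All 3 were lower in each 8 hpl library than in any 0 hpl library.

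Some genes of heme and iron rose. Heme is built in mitochondria from porphyrins, receives its iron there and is split by heme oxygenases. Of the 40 tested members of the heme, iron and porphyrin list, 9 rose and the other 31 did not pass (22.5%, against 1.9% of all genes tested). The median log2 fold change of the list was 0.30, and that of all genes 0.02. This list and the others below were chosen with earlier results of these data known, so their shares are only a description.

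fech, for ferrochelatase, which puts iron into the porphyrin ring as the last step of heme synthesis, was at 59.6, 35.9 and 50.3 CPM at 8 hpl, against 7.56, 8.98 and 7.01 CPM at 0 hpl (log2 fold change 2.63 ± 0.28 SE, adjusted p = 0.00192). hebp2, for a heme-binding protein, was at 132, 42.7 and 136 CPM at 8 hpl, against 12.5, 11.13 and 10.6 CPM at 0 hpl (log2 fold change 3.19 ± 0.39 SE, adjusted p = 0.00328). hmox2a, for a heme oxygenase, was at 237, 94.8 and 235 CPM at 8 hpl, against 40.5, 39.8 and 40.5 CPM at 0 hpl (log2 fold change 2.23 ± 0.35 SE, adjusted p = 0.0116). Their 0 hpl libraries hardly differed from each other, and replicate 2 was the lowest 8 hpl library in each.

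The iron reductase gene steap4 rose too, with 6.36, 4.58 and 8.64 CPM at 8 hpl, against 2.29, 2.1 and 1.12 CPM at 0 hpl (log2 fold change 1.82 ± 0.37 SE, adjusted p = 0.0315), in a range of low levels. Of the ferritin heavy chain genes, whose products store iron, zgc:92066 (fthl27 in the gene name table) was at 177, 164 and 194 CPM at 8 hpl, against 70.7, 62.2 and 65.8 CPM at 0 hpl (log2 fold change 1.43 ± 0.21 SE, adjusted p = 0.00743). zgc:109934 (fthl31) was at 93.1, 87.3 and 88.6 CPM at 8 hpl, against 33.4, 30.7 and 34.9 CPM at 0 hpl (log2 fold change 1.44 ± 0.29 SE, adjusted p = 0.0308), and in both the 8 hpl libraries were close together. The other called members were abcb6a, blvra and soul5. urod (1.99, adjusted p = 0.073), for an earlier enzyme of the pathway, and hmox1a (1.36, adjusted p = 0.147), for a further heme oxygenase, were not called.

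Outside the list, tspo, for a protein of the outer mitochondrial membrane that binds porphyrins and cholesterol, was at 50.05, 14.96 and 57.5 CPM at 8 hpl, against 0.458, 0.849 and 1.60 CPM at 0 hpl (log2 fold change 5.38 ± 0.61 SE, adjusted p = 0.00255). Of erythrocyte markers with too few counts to be tested, the globin gene hbaa1 had 46 counts over the 3 libraries of 8 hpl and 8 over those of 0 hpl. In the same order hbaa2 had 2 and 0, and alas2 had 3 and 2. The 1 tested erythrocyte marker was at 4.22 to 6.09 CPM at 8 hpl and 3.53 to 4.64 CPM at 0 hpl. It was not called (log2 fold change 0.37).

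fech, tspo, hebp2, soul5, blvra and abcb6a were called in each fit without 1 library, while the calls of hmox2a, zgc:92066, zgc:109934 and steap4 ended without at least 1 of replicates 1 and 3 of 8 hpl, replicate 1 of 16 hpl and replicates 1, 2 and 3 of 0 hpl (highest adjusted p 0.141). The number of list members called higher was never under 5 in these fits, its value without 0 hpl replicate 1 or 2.

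Some genes of mitochondrial enzymes and of their assembly rose, most of them chosen here after their values were seen. sdha, for the flavoprotein subunit of succinate dehydrogenase, the enzyme shared by the citric acid cycle and the respiratory chain, was at 899.7, 362 and 942 CPM at 8 hpl, against 206, 222 and 257 CPM at 0 hpl (log2 fold change 1.68 ± 0.35 SE, adjusted p = 0.0339). Genes of its assembly factors rose as well. sdhaf1 was at 62.4, 26.8 and 63.9 CPM at 8 hpl, against 12.4, 11.6 and 14.1 CPM at 0 hpl (log2 fold change 2.00 ± 0.32 SE, adjusted p = 0.0118), and sdhaf4 rose by 2.12 (adjusted p = 0.0281). For sdha, replicate 2 lay closer to 0 hpl than to the other 8 hpl libraries.

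flad1, for the enzyme that makes the flavin cofactor FAD, was at 128, 29.6 and 138 CPM at 8 hpl, against 10.6, 13.4 and 13.05 CPM at 0 hpl (log2 fold change 2.99 ± 0.51 SE, adjusted p = 0.0171). etfdh, for the dehydrogenase that passes electrons from fat oxidation to ubiquinone, was at 103, 19.98 and 106 CPM at 8 hpl, against 10.8, 11.5 and 11.7 CPM at 0 hpl (log2 fold change 2.75 ± 0.54 SE, adjusted p = 0.0288). In both genes 8 hpl replicate 2 was far below the other 8 hpl libraries and still above all 0 hpl libraries. The fatty acid dehydrogenase genes acads (1.61, adjusted p = 0.0366) and acadvl (1.08, adjusted p = 0.0386), whose products hand electrons to the same chain, rose by less on the log2 scale.

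Of iron-sulfur cluster assembly, nfs1, for the cysteine desulfurase that supplies sulfur, was at 456, 109.9 and 480.1 CPM at 8 hpl, against 63.9, 62.9 and 104 CPM at 0 hpl (log2 fold change 2.18 ± 0.48 SE, adjusted p = 0.0432). glrx5, for a cluster carrier, was at 167, 85.4 and 155 CPM at 8 hpl, against 37.4, 32.8 and 56.6 CPM at 0 hpl (log2 fold change 1.68 ± 0.31 SE, adjusted p = 0.022). In nfs1 the lowest 8 hpl library and the highest 0 hpl library nearly met. hccsa.1, for the enzyme that attaches heme to cytochrome c, had 80.9, 13.8 and 87.3 CPM at 8 hpl, against 6.76, 4.69 and 7.65 CPM at 0 hpl (log2 fold change 3.25 ± 0.72 SE, adjusted p = 0.0432).

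Further along the respiratory chain, uqcc3, for an assembly factor of complex III, was at 79.2, 17.8 and 80.7 CPM at 8 hpl, against 4.29, 3.80 and 4.17 CPM at 0 hpl (log2 fold change 3.86 ± 0.59 SE, adjusted p = 0.0106). cyc1, for cytochrome c1 of the same complex, rose by 1.44 (adjusted p = 0.0439) and cox17, for a copper chaperone of cytochrome c oxidase, by 1.75 (adjusted p = 0.0218) on the log2 scale. Ubiquinone genes moved both ways. coq5 (1.15, adjusted p = 0.0335) and coq7 (1.06, adjusted p = 0.0311), for enzymes of its synthesis, rose. coq10b, for a ubiquinone-binding protein, fell, with 54.3, 55.6 and 56.9 CPM at 8 hpl, against 107, 98.8 and 127 CPM at 0 hpl (log2 fold change −0.999 ± 0.20 SE, adjusted p = 0.0297). Of protease and chaperone genes of the matrix and inner membrane, spg7 (1.75, adjusted p = 0.0216) and yme1l1a (1.51, adjusted p = 0.0463) rose. So did hspd1 (1.30, adjusted p = 0.047) and clpxb (0.98, adjusted p = 0.0161). In yme1l1a 8 hpl replicate 2, at 73.8 CPM, lay close to 0 hpl replicate 3, at 64.9 CPM. Without the 3 libraries that stand apart, log2 fold changes were 0.33 for yme1l1a, 0.51 for nfs1, 0.59 for coq7 and 0.79 for sdhaf4. They were 1.25 for flad1, 1.07 for sdhaf1 and 1.07 for cox17.

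Most genes of the respiratory chain did not pass. Of 81 tested nuclear subunit genes, 2 rose (sdha and cyc1), or 2.47%, near the 1.9% of all genes, and the median log2 fold change was 0.01. The 13 subunit genes of the mitochondrial genome had log2 fold changes of −0.42 to −0.17 with none called by edgeR, 0 at an unadjusted p under 0.05 and 0 called by DESeq2 or limma-voom. In the citric acid cycle list 2 of 31 members rose (6.45%), sdha and idh1 (0.87, adjusted p = 0.0294), the latter not for a mitochondrial enzyme of the cycle. Each call of these genes of mitochondrial enzymes and their assembly, and that of idh1, ended without at least 1 of replicates 1 and 3 of 8 hpl, replicates 1 and 3 of 16 hpl and replicates 1, 2 and 3 of 0 hpl (highest adjusted p 0.204).

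**Figure D2:**
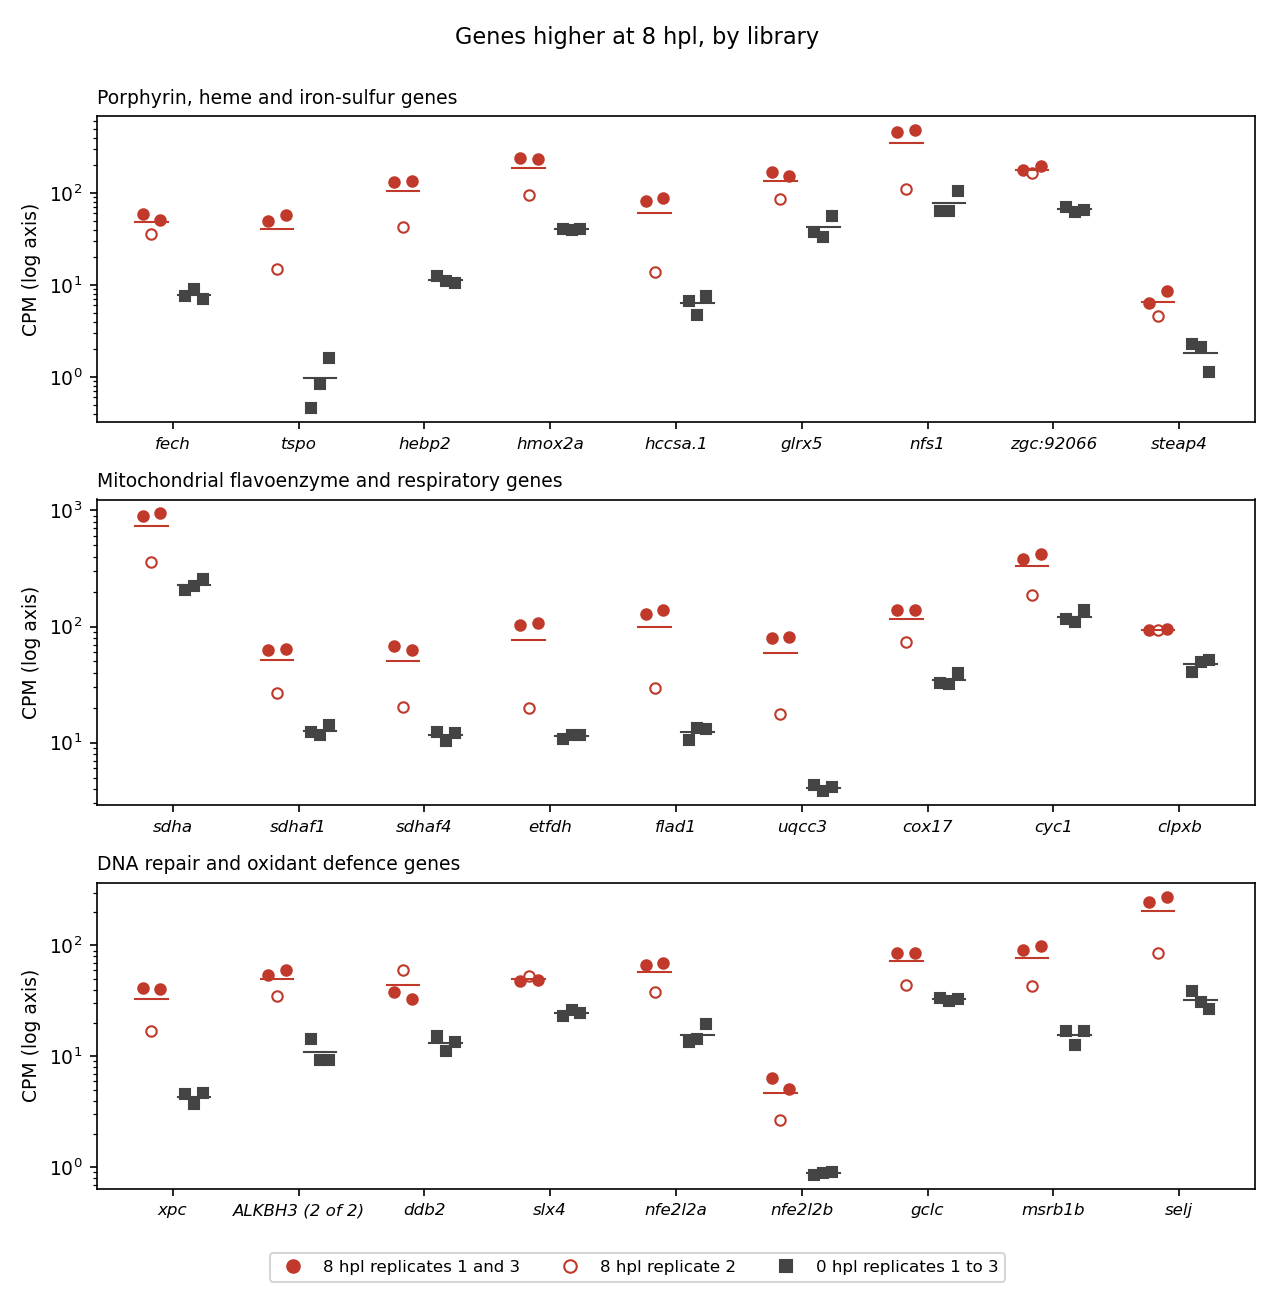
CPM on a log axis of 27 genes that rose, in the 3 libraries of 8 hpl (circles, replicate 2 open) and the 3 of 0 hpl (squares), with bars at group means. Replicate 2 is the lowest 8 hpl library for most of these genes, as for etfdh and uqcc3, and the highest for ddb2 and slx4.

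Some DNA repair genes rose, while most of the repair machinery did not pass. In the list of photolyases and DNA repair, 4 of 37 tested members rose, cry5, cry-dash, xpc and ddb2 (10.8%, against 1.9% of all genes tested). xpc, for the sensor of distorted helices in nucleotide excision repair, was at 41.6, 17.01 and 40.7 CPM at 8 hpl, against 4.58, 3.71 and 4.65 CPM at 0 hpl (log2 fold change 2.94 ± 0.36 SE, adjusted p = 0.00333). ddb2, for the subunit that binds ultraviolet photoproducts, was at 38.1, 59.8 and 32.8 CPM at 8 hpl, against 15.3, 11.3 and 13.4 CPM at 0 hpl (log2 fold change 1.71 ± 0.25 SE, adjusted p = 0.0086) and so was highest in 8 hpl replicate 2.

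ALKBH3 (2 of 2), for an enzyme that reverses alkylation damage, was at 53.7, 34.98 and 59.6 CPM at 8 hpl, against 14.3, 9.20 and 9.20 CPM at 0 hpl (log2 fold change 2.18 ± 0.27 SE, adjusted p = 0.00328). slx4, for a nuclease scaffold of crosslink repair, had 47.6, 52.8 and 48.9 CPM at 8 hpl, against 22.96, 26.3 and 24.4 CPM at 0 hpl (log2 fold change 1.02 ± 0.19 SE, adjusted p = 0.0259), and its 3 libraries of 8 hpl were nearly equal. The ribonucleotide reductase genes rrm2b (1.89, adjusted p = 0.0124), a p53 target in mammals that supplies nucleotides for repair, and rrm1 (0.97, adjusted p = 0.0497) were the 2 called members of the 71 in the list of G1/S and DNA replication (2.82%, near the 1.9% of all genes). xpc and ALKBH3 (2 of 2) were called in each fit without 1 library. The call of ddb2 ended without replicate 2 of 0 hpl (adjusted p = 0.0565), and those of slx4, rrm2b and rrm1 without at least 1 of replicates 1 and 3 of 8 hpl, replicates 1 and 3 of 16 hpl and replicates 1, 2 and 3 of 0 hpl (highest adjusted p 0.212).

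Some genes of oxidant defence rose. Nrf2 factors switch on genes that make glutathione and detoxify electrophiles. nfe2l2a, for an Nrf2 factor, was at 66.8, 38.4 and 68.9 CPM at 8 hpl, against 13.5, 14.2 and 19.5 CPM at 0 hpl (log2 fold change 1.88 ± 0.30 SE, adjusted p = 0.0129). Its paralog nfe2l2b was at 6.33, 2.69 and 5.06 CPM at 8 hpl, against 0.859, 0.894 and 0.909 CPM at 0 hpl (log2 fold change 2.40 ± 0.48 SE, adjusted p = 0.0311). The related nfe2l1a rose by 1.74 (adjusted p = 0.0432). For all 3 genes the groups did not overlap.

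Of 52 tested members of the oxidative stress and glutathione list, 6 rose: nfe2l2a, hmox2a, fam213b, gclc, gstt1b and sepw1 (11.5%, against 1.9% of all genes). gclc, for the catalytic subunit of the enzyme that limits glutathione synthesis, had 85.5, 44.4 and 86.2 CPM at 8 hpl, against 33.7, 31.4 and 33.1 CPM at 0 hpl (log2 fold change 1.14 ± 0.26 SE, adjusted p = 0.0496). gclm, for the other subunit, was at 23.1, 29.1 and 20.7 CPM at 8 hpl, against 36.8, 35.7 and 47.7 CPM at 0 hpl and was not called (−0.72, adjusted p = 0.0972). The 2 subunit genes thus lay on opposite sides of 0 hpl. The glutathione transferase gene gstt1b rose by 1.80 (adjusted p = 0.0159), and cbr1, for a carbonyl reductase, by 1.96 (adjusted p = 0.0201).

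The selenoprotein genes msrb1b, selj and sepw1 rose, the first pair chosen after their values were seen. msrb1b, for a methionine sulfoxide reductase, was at 90.1, 43.4 and 98.5 CPM at 8 hpl, against 17.1, 12.7 and 16.8 CPM at 0 hpl (log2 fold change 2.32 ± 0.32 SE, adjusted p = 0.00632). selj was at 246, 85.4 and 276 CPM at 8 hpl, against 38.8, 30.9 and 26.8 CPM at 0 hpl (log2 fold change 2.65 ± 0.40 SE, adjusted p = 0.00951), and sepw1 rose by 1.15 (adjusted p = 0.0458). msrb1b and fam213b were called in each fit without 1 library, and each of the other oxidant defence calls ended without at least 1 of replicates 1 and 3 of 8 hpl, replicates 1 and 3 of 16 hpl and replicates 1, 2 and 3 of 0 hpl (highest adjusted p 0.201). The oxidative stress list had 1 call left without 0 hpl replicate 1 or 2 or 8 hpl replicate 1 or 3. Leaving out the 3 libraries that stand apart gave 4.

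Of 66 tested genes of the p53 and apoptosis list, 6 rose (9.09%, against 1.9% of all genes). bbc3, for the p53-induced BH3 protein Puma, was at 23.6, 26.98 and 27.7 CPM at 8 hpl, against 9.85, 10.9 and 9.57 CPM at 0 hpl (log2 fold change 1.36 ± 0.19 SE, adjusted p = 0.00617). apaf1, for the scaffold of the apoptosome, was at 22.4, 29.2 and 21.4 CPM at 8 hpl, against 9.22, 11.97 and 10.4 CPM at 0 hpl (log2 fold change 1.21 ± 0.23 SE, adjusted p = 0.0252). bada, for a further BH3 protein, was at 15.2, 16.4 and 16.3 CPM at 8 hpl, against 8.42, 7.28 and 5.40 CPM at 0 hpl (log2 fold change 1.18 ± 0.27 SE, adjusted p = 0.0455). No 8 hpl library of the 3 genes overlapped with 0 hpl. gadd45ba, for a stress sensor of the growth arrest family, was at 479.6, 689 and 465 CPM at 8 hpl, against 234, 243 and 271 CPM at 0 hpl (log2 fold change 1.13 ± 0.24 SE, adjusted p = 0.0359), highest in replicate 2. Its relative gadd45bb was at 92.02, 45.1 and 97.1 CPM at 8 hpl, against 17.6, 18.4 and 9.79 CPM at 0 hpl (log2 fold change 2.36 ± 0.33 SE, adjusted p = 0.00686), lowest in replicate 2, and phlda2 rose by 2.83 (adjusted p = 0.0197). The median log2 fold change of the list was 0.29. Without 0 hpl replicate 1 only gadd45bb was called, and its call held in each fit without 1 library. The calls of bbc3, apaf1, bada, phlda2 and gadd45ba ended without at least 1 of replicates 1 and 3 of 8 hpl, replicate 1 of 16 hpl and replicates 1, 2 and 3 of 0 hpl (highest adjusted p 0.18).

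The clock list held the largest share of rises among lists of 20 or more tested genes, 13 of 43 (30.2%, against 1.9% of all genes). Not all members went up: 27 of the 43 had a positive log2 fold change, and the median was 0.81. None was called lower with all 9 libraries, but up to 13 were in a fit without 1 library. The median log2 difference of the list from the 0 hpl mean was 0.22, 0.96 and 0.27 in 8 hpl replicates 1, 2 and 3, so it was highest in replicate 2. In the clock, Clock and Bmal proteins activate the genes of their own repressors, the Per and Cry proteins, and Nfil3 and Ror proteins tune Bmal and output genes. Several activator genes were much higher in replicates 1 and 3 than in replicate 2 of 8 hpl. arntl1a, for a Bmal protein, was at 122.9, 14.7 and 125 CPM at 8 hpl, against 8.19, 7.73 and 8.56 CPM at 0 hpl (log2 fold change 3.42 ± 0.73 SE, adjusted p = 0.0369). Its paralog arntl1b rose by 3.36 (adjusted p = 0.0319). npas2, for a Clock-like partner, was at 84.4, 14.4 and 70.6 CPM at 8 hpl, against 3.32, 3.71 and 8.13 CPM at 0 hpl (log2 fold change 3.48 ± 0.68 SE, adjusted p = 0.0288). In each of them 8 hpl replicate 2 was far below the other 8 hpl libraries and above all 0 hpl libraries.

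The bZIP repressor gene nfil3 was split more widely, at 449, 35.9 and 462 CPM at 8 hpl, against 7.22, 9.11 and 6.84 CPM at 0 hpl (log2 fold change 5.35 ± 0.83 SE, adjusted p = 0.0109). Its relative nfil3-2 was at 551, 30.8 and 573 CPM at 8 hpl, against 7.27, 10.4 and 38.02 CPM at 0 hpl (log2 fold change 4.38 ± 0.98 SE, adjusted p = 0.0447) and was the 1 gene of the 563 whose groups overlapped. In other clock genes the 8 hpl libraries were closer together. clocka, for a Clock protein, was at 52.5, 40.2 and 44.4 CPM at 8 hpl, against 14.3, 14.3 and 13.7 CPM at 0 hpl (log2 fold change 1.69 ± 0.34 SE, adjusted p = 0.0319). cry1a, for a light-induced Cry repressor, was at 866, 714 and 925 CPM at 8 hpl, against 353, 359 and 379 CPM at 0 hpl (log2 fold change 1.1999 ± 0.21 SE, adjusted p = 0.0195), so that all 8 hpl libraries stood clear of 0 hpl. Of further members, clockb (1.41, adjusted p = 0.0137), cry4 (2.70, adjusted p = 0.0239), cry2b (3.242, adjusted p = 0.00279) and csnk1e (0.76, adjusted p = 0.0339), for a kinase of Per proteins, rose. The cry2a and cry2b genes are near relatives, so reads may be shared between them, and per2 and cry2a were the other called members.

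Outside the list, wee1, for a mitotic inhibitor under clock control in mammals and fish, was at 101, 28.7 and 105 CPM at 8 hpl, against 12.6, 10.7 and 6.95 CPM at 0 hpl (log2 fold change 2.95 ± 0.56 SE, adjusted p = 0.0255). id2b, for an inhibitor of basic helix-loop-helix factors, was at 149, 23.3 and 142 CPM at 8 hpl, against 11.7, 8.36 and 16.8 CPM at 0 hpl (log2 fold change 3.09 ± 0.58 SE, adjusted p = 0.0254). Both had 8 hpl replicate 2 nearest to 0 hpl. cry2a and cry2b were called in each fit without 1 library. Each other call of a clock gene named here ended without at least 1 of replicates 1 and 3 of 8 hpl, replicates 1, 2 and 3 of 16 hpl and replicates 1, 2 and 3 of 0 hpl (highest adjusted p 0.188). The list count was 14 without the 3 libraries that stand apart and 2 without 0 hpl replicate 2.

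Some genes of actin and of the Hippo-Yap pathway, which reads cell tension, rose. ctgfa, for a secreted matrix protein that is a target of the coactivator Yap, was at 7.35, 22.2 and 7.74 CPM at 8 hpl, against 1.26, 0.760 and 0.214 CPM at 0 hpl (log2 fold change 4.06 ± 0.62 SE, adjusted p = 0.0104), and in it replicate 2 was well above the other 8 hpl libraries. ankrd1a, another such target, was near 0 at 0 hpl, with 1.29, 1.09 and 1.66 CPM at 8 hpl, against 0.0573, 0.134 and 0 CPM at 0 hpl (log2 fold change 4.21 ± 0.73 SE, adjusted p = 0.0183). They were the 2 called members of 30 in the Hippo-Yap list (6.67%, against 1.9% of all genes).

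Of 110 tested genes of the actin and intermediate filament list 6 rose (5.45%, against 1.9% of all genes) and 2 fell (1.82%, against 0.931%). The risers were palld, rhoae, flna, cnn2, anxa11a and myl9b. flna, for filamin A, which crosslinks actin, was at 80.4, 75.5 and 85.1 CPM at 8 hpl, against 37.7, 44.5 and 28.3 CPM at 0 hpl (log2 fold change 1.12 ± 0.22 SE, adjusted p = 0.0298). cnn2, for a calponin, was at 30.5, 31.9 and 30.8 CPM at 8 hpl, against 13.3, 15.5 and 7.27 CPM at 0 hpl (log2 fold change 1.37 ± 0.29 SE, adjusted p = 0.0346). rhoae (rhoca in the gene name table), for a small GTPase of the actin cytoskeleton, was at 54.7, 32.1 and 58.6 CPM at 8 hpl, against 10.9, 12.5 and 15.9 CPM at 0 hpl (log2 fold change 1.88 ± 0.31 SE, adjusted p = 0.014). In flna and cnn2 the 8 hpl libraries were close together, and in rhoae replicate 2 was the lowest. anxa11a (1.13, adjusted p = 0.0118), for an annexin, and myl9b (0.86, adjusted p = 0.0464), for a regulatory myosin light chain, rose less. The fallers were rnd3b (−1.83, adjusted p = 0.023), for an atypical small GTPase that opposes contraction, and krt4. Outside the list xirp1, for an actin-binding repeat protein, had 7.61, 3.90 and 8.28 CPM at 8 hpl, against 2.29, 1.56 and 0.802 CPM at 0 hpl (log2 fold change 2.09 ± 0.43 SE, adjusted p = 0.0328). Each of these calls except those of palld and fam101b ended without at least 1 of replicates 1 and 3 of 8 hpl, replicates 1 and 3 of 16 hpl and replicates 1, 2 and 3 of 0 hpl (highest adjusted p 0.209).

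Calls were also spread over lists of cytokine signalling and complement. Of 7 tested leptin and interleukin-6 family ligands and partners 2 rose, lepb and crlf1a (28.6%, against 1.9% of all genes), of 14 interleukin-6 family receptor and JAK-STAT genes 2 rose, jak1 and stat3 (14.3%), and 2 rose of 11 STAT feedback genes (18.2%) and of 9 complement genes (22.2%). lepb, crlf1a and stat3 were called in each fit without 1 library. ptgs2b, for cyclooxygenase 2, which makes prostaglandins, was at 34.8, 73.4 and 40.02 CPM at 8 hpl, against 10.02, 10.2 and 6.79 CPM at 0 hpl (log2 fold change 2.45 ± 0.38 SE, adjusted p = 0.0106), with replicate 2 again the highest. jak1, for the kinase that cytokine receptors of the interleukin-6 family use, was at 104, 73.8 and 113 CPM at 8 hpl, against 31.1, 30.2 and 33.8 CPM at 0 hpl (log2 fold change 1.61 ± 0.34 SE, adjusted p = 0.0365). il23r, for a cytokine receptor, rose by 1.97 (adjusted p = 0.0346) and tnfrsf21, for a death domain receptor, by 1.53 (adjusted p = 0.0161), the only called member of 23 in the tumour necrosis factor and interleukin-1 list (4.35%). C5H8orf4 (2 of 2) had 56.5, 183 and 48.6 CPM at 8 hpl, against 16.6, 17.4 and 16.4 CPM at 0 hpl (log2 fold change 2.51 ± 0.45 SE, adjusted p = 0.0206). The calls of ptgs2b, jak1, il23r, tnfrsf21 and C5H8orf4 (2 of 2) ended without at least 1 of replicates 1 and 3 of 8 hpl and replicates 1, 2 and 3 of 0 hpl (highest adjusted p 0.165).

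Retinoid genes moved both ways. cyp26a1, for the enzyme that degrades retinoic acid, was at 4.66, 3.38 and 3.63 CPM at 8 hpl, against 44.5, 43.8 and 11.2 CPM at 0 hpl (log2 fold change −3.09 ± 0.47 SE, adjusted p = 0.00973), where 0 hpl replicate 3 was well below the other 0 hpl libraries and still above 8 hpl. The retinol dehydrogenase genes rdh10b (1.19, adjusted p = 0.0153), rdh14b (0.83, adjusted p = 0.0359) and rdh12l (1.78, adjusted p = 0.0388) rose, which with cyp26a1 made 3 rises and 1 fall among 40 tested members (7.5% and 2.5%, against 1.9% and 0.931% of all genes). RDH13 (2 of 3), for a related dehydrogenase, was at 952, 217 and 959 CPM at 8 hpl, against 114, 115 and 134 CPM at 0 hpl (log2 fold change 2.55 ± 0.46 SE, adjusted p = 0.0207). irbp, for the retinoid carrier between photoreceptors and pigment epithelium, was at 5811, 1061 and 5789 CPM at 8 hpl, against 986, 1022 and 1549 CPM at 0 hpl and was not called (1.83, adjusted p = 0.106). rbp4l, for a retinol-binding protein, was at 20244, 2689 and 20948 CPM at 8 hpl, against 2905, 2620.2 and 4075 CPM at 0 hpl and was not called (2.19, adjusted p = 0.204). In both, replicates 1 and 3 of 8 hpl stood far above 0 hpl and replicate 2 lay within the range of 0 hpl. Without the 3 libraries that stand apart their log2 fold changes were −0.16 and −0.25.

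The retinoid list had no call left without 8 hpl replicate 3 or without 0 hpl replicate 1 or 2. Each call ended without at least 1 of replicates 1 and 3 of 8 hpl, replicate 1 of 16 hpl and replicates 1, 2 and 3 of 0 hpl (highest adjusted p 0.181).

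Some feedback genes of MAP kinase signalling and genes of the Notch pathway fell. dusp6, for a phosphatase that is induced by and limits the MAP kinase Erk, was at 281, 339 and 288 CPM at 8 hpl, against 663, 683 and 1068 CPM at 0 hpl (log2 fold change −1.41 ± 0.23 SE, adjusted p = 0.0135). It and dusp5 were the 2 called members of 23 in the list of FGF ligands, receptors and MAP kinase feedback (8.70%, against 0.931% of all genes), and the call of dusp5 held in each fit without 1 library. etv5a, for an Erk-dependent transcription factor, was at 126, 137 and 129 CPM at 8 hpl, against 219, 245 and 566 CPM at 0 hpl and was not called (−1.39, adjusted p = 0.0542).

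hey1, for a repressor that Notch induces, was at 11.2, 11.98 and 10.5 CPM at 8 hpl, against 32.01, 32.6 and 26.6 CPM at 0 hpl (log2 fold change −1.44 ± 0.21 SE, adjusted p = 0.0087), the 1 called member of 30 in the list of Notch genes and helix-loop-helix repressors (3.33%). Over all genes tested, 0.931% were called lower. The median log2 fold change of the Notch list was −0.56, against 0.02 for all genes, and 7 of its 30 members had a positive value. her6, for a repressor of the same family, was at 26.9, 32.1 and 27.4 CPM at 8 hpl, against 72.5, 77.7 and 29.1 CPM at 0 hpl and was not called (−1.05, adjusted p = 0.12). Of Notch genes outside the list, dtx1 (−1.29, adjusted p = 0.0339), for a ubiquitin ligase of the receptor, and maml3 (−1.45, adjusted p = 0.0334), for a coactivator, fell. The calls of dusp6, hey1, dtx1 and maml3 ended without at least 1 of replicates 1 and 3 of 8 hpl, replicate 1 of 16 hpl and replicates 1, 2 and 3 of 0 hpl (highest adjusted p 0.163).

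Some genes of amino acid use fell. In the list of amino acid transport and synthesis 2 of 47 tested members fell (4.26%, against 0.931% of all genes), among them arg1. None rose, and the median log2 fold change was 0.08. cbsb, for cystathionine beta-synthase, which draws homocysteine towards cysteine, was at 35.5, 59.4 and 45.2 CPM at 8 hpl, against 156, 153 and 164 CPM at 0 hpl (log2 fold change −1.76 ± 0.23 SE, adjusted p = 0.00522). mars, for methionyl-tRNA synthetase, was at 33.5, 46.8 and 34.5 CPM at 8 hpl, against 98.1, 104 and 115 CPM at 0 hpl (log2 fold change −1.47 ± 0.18 SE, adjusted p = 0.00331). Both were called in each fit without 1 library, and every 8 hpl library was far below every 0 hpl library. Of 21 tested aminoacyl tRNA synthetase genes 2 fell, mars and cars (−0.78, adjusted p = 0.0339), or 9.52%. The median of the list was −0.59 on the log2 scale and 20 of its 21 members had a negative value.

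tdh, for threonine dehydrogenase, was at 38.6, 81.9 and 39.6 CPM at 8 hpl, against 146, 133 and 185 CPM at 0 hpl (log2 fold change −1.54 ± 0.31 SE, adjusted p = 0.0313). slc1a4, for a transporter of alanine, serine and cysteine, was at 21.6, 50.7 and 22.03 CPM at 8 hpl, against 83.7, 74.9 and 103 CPM at 0 hpl (log2 fold change −1.47 ± 0.31 SE, adjusted p = 0.0381). In both, replicate 2 was the 8 hpl library nearest to 0 hpl. The arginase gene arg1 fell by 2.12 on the log2 scale (adjusted p = 0.049). Among mitochondrial carriers 3 of 42 fell (7.14%, against 0.931% of all genes), all for calcium-regulated carriers of ATP and phosphate. None rose, but 25 of the 42 had a positive log2 fold change, and the median was 0.10. slc25a24 was at 6.63, 16.4 and 6.13 CPM at 8 hpl, against 83.6, 67.2 and 83.9 CPM at 0 hpl (log2 fold change −3.005 ± 0.60 SE, adjusted p = 0.0303). slc25a23b was at 162, 163 and 162 CPM at 8 hpl, against 277, 337 and 480.0 CPM at 0 hpl (log2 fold change −1.17 ± 0.24 SE, adjusted p = 0.0339), with nearly equal libraries at 8 hpl, and slc25a25b fell by 1.29 (adjusted p = 0.0183). Apart from cbsb and mars, each of these calls ended without at least 1 of replicates 1 and 3 of 8 hpl, replicates 1 and 3 of 16 hpl and replicates 1, 2 and 3 of 0 hpl (highest adjusted p 0.212).

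Cone genes fell and rod genes mostly did not pass. Cones and rods use separate copies of many phototransduction proteins, and the RNAs of those can be read apart. Shared members serve rods too, so the list of cone or shared genes is not of cone RNA alone. Of 30 tested genes of cone or shared phototransduction 8 fell (26.7%, against 0.931% of all genes), with a median log2 fold change over the list of −1.29. Summed over the list, CPM were 6153 to 8389 at 8 hpl and 13706 to 17871 at 0 hpl. Of 30 rod genes 1 fell (3.33%, against 0.931% of all genes). It was prph2a, whose product shapes the discs of the outer segment in rods and cones, at 101, 96.9 and 116 CPM at 8 hpl, against 291, 249.8 and 304 CPM at 0 hpl (log2 fold change −1.43 ± 0.25 SE, adjusted p = 0.0171). The median of the rod list was 0.07.

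grk7a, for the cone opsin kinase, was at 44.02, 56.5 and 51.2 CPM at 8 hpl, against 292, 292 and 351 CPM at 0 hpl (log2 fold change −2.62 ± 0.56 SE, adjusted p = 0.0388), with every 8 hpl library far below every 0 hpl library. rgs9a, for the protein that speeds the switching off of transducin, was at 10.6, 6.39 and 9.89 CPM at 8 hpl, against 35.6, 37.3 and 59.7 CPM at 0 hpl (log2 fold change −2.30 ± 0.39 SE, adjusted p = 0.0161). RGS9BP, for its membrane anchor, was at 25.6, 36.7 and 23.3 CPM at 8 hpl, against 67.8, 73.1 and 79.03 CPM at 0 hpl (log2 fold change −1.36 ± 0.23 SE, adjusted p = 0.0156). opn1sw2, for the blue cone opsin, was at 117, 77.3 and 145 CPM at 8 hpl, against 325, 303 and 382 CPM at 0 hpl (log2 fold change −1.57 ± 0.29 SE, adjusted p = 0.0234). gnb3b, for a transducin subunit, fell by 1.45 (adjusted p = 0.0234) and gc3, for a guanylate cyclase, by 1.36 (adjusted p = 0.0102) on the log2 scale. The other called members were gnat2 and guca1d.

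The red and green opsin genes opn1lw1 and opn1mw4 had log2 fold changes of 0.67 and 0.62 and were not called. arr3a, for a cone arrestin, was at 1148, 265 and 1289 CPM at 8 hpl, against 657, 608 and 764 CPM at 0 hpl and was not called (0.41, adjusted p = 0.763), with a log2 fold change of −1.36 without the 3 libraries that stand apart. PDE6H, for the cone phosphodiesterase inhibitor, was at 1015, 4786 and 969 CPM at 8 hpl, against 7659, 6974 and 8723 CPM at 0 hpl and was not called either (−1.79, adjusted p = 0.151). cnga3a, for the cone channel, was at 5.99, 25.5 and 8.51 CPM at 8 hpl, against 103, 99.9 and 108 CPM at 0 hpl and was not called (−2.96, adjusted p = 0.134). In PDE6H and cnga3a replicate 2 lay between the other 8 hpl libraries and 0 hpl. Of the 15 cone markers 5 fell (33.3%, against 0.931% of all genes), and 5 had a positive log2 fold change. The markers summed to 3709 to 6653 CPM at 8 hpl and 11028 to 14357 CPM at 0 hpl. The part that cone RNA taken along in the sort has in these falls was not tested.

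Other photoreceptor genes fell as well. aanat1, for the enzyme before the last step of melatonin synthesis, was at 228, 308 and 240.0 CPM at 8 hpl, against 582, 572 and 1066 CPM at 0 hpl (log2 fold change −1.52 ± 0.29 SE, adjusted p = 0.0268). hcn3, for a pacemaker channel, was at 207, 244 and 204 CPM at 8 hpl, against 595, 692 and 1035 CPM at 0 hpl (log2 fold change −1.83 ± 0.31 SE, adjusted p = 0.0168). The genes of the matrix between photoreceptors impg1a (−1.21, adjusted p = 0.0311) and impg1b (−1.33, adjusted p = 0.0497) fell. In a separate list, of thyroid hormone and nuclear receptors, 1 of 41 tested members fell and 1 rose (2.44% each, against 0.931% and 1.9% of all genes). The faller was esrrgb, for an orphan nuclear receptor, at 26.7, 27.5 and 19.7 CPM at 8 hpl, against 80.9, 95.5 and 78.3 CPM at 0 hpl (log2 fold change −1.78 ± 0.34 SE, adjusted p = 0.0254). The call of guca1d held in each fit without 1 library. Each other call of a photoreceptor gene given here, and that of esrrgb, ended without at least 1 of replicates 1, 2 and 3 of 8 hpl, replicate 1 of 16 hpl and replicates 1, 2 and 3 of 0 hpl (highest adjusted p 0.195). The list of cone or shared phototransduction had 1 call left without 0 hpl replicate 1 or 8 hpl replicate 1.

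**Figure D3:**
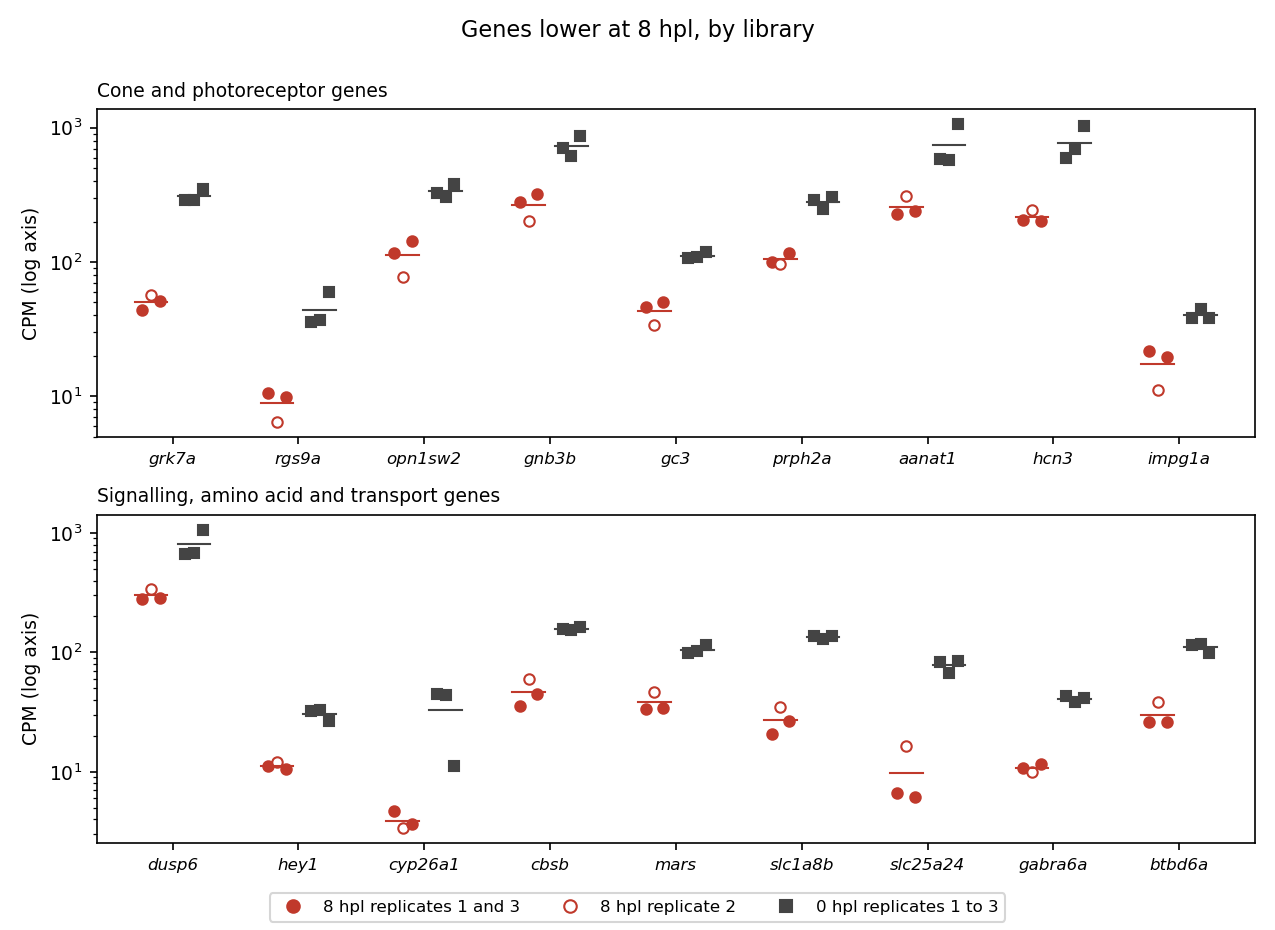
CPM on a log axis of 18 genes that fell, in the 3 libraries of 8 hpl (circles, replicate 2 open) and the 3 of 0 hpl (squares), with bars at group means. For prph2a and hey1 replicate 2 lies close to the other 8 hpl libraries, and for slc25a24 it is the highest of the 3 at 8 hpl.

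Some neuronal genes fell, while most did not pass. Of 62 receptor genes for glutamate, GABA and glycine, 3 fell, among them gabrr1 and gabra6a (4.84%, against 0.931% of all genes), and 1 rose, GRM5 (2.34, adjusted p = 0.022; 1.61%, against 1.9%). Of 70 synaptic vesicle and release genes 2 fell (2.86%, against 0.931% of all genes) and 1 rose (1.43%, against 1.9%). gabra6a, for a GABA receptor subunit, was at 10.7, 9.89 and 11.6 CPM at 8 hpl, against 43.2, 38.6 and 41.2 CPM at 0 hpl (log2 fold change −1.94 ± 0.30 SE, adjusted p = 0.0106). slc1a8b, for a glutamate transporter, was at 20.6, 34.6 and 26.7 CPM at 8 hpl, against 136, 130.4 and 137 CPM at 0 hpl (log2 fold change −2.30 ± 0.47 SE, adjusted p = 0.0339). In the list of glutamate, glycine and GABA uptake, 3 members of 31 rose (9.68%) and 2, slc1a8b and slc1a4, fell (6.45%). The rises were slc38a3a, abat (1.05, adjusted p = 0.0339), for the enzyme that degrades GABA, and gamt (1.69, adjusted p = 0.0408), for an enzyme of creatine synthesis.

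Of cholinergic amacrine cells, chata, for the enzyme that makes acetylcholine, was at 10.8, 12.7 and 15.8 CPM at 8 hpl, against 46.2, 28.5 and 40.1 CPM at 0 hpl (log2 fold change −1.54 ± 0.36 SE, adjusted p = 0.0497). slc5a7a, for the choline transporter, was at 3.18, 3.06 and 5.33 CPM at 8 hpl, against 14.2, 8.58 and 12.3 CPM at 0 hpl (log2 fold change −1.60 ± 0.34 SE, adjusted p = 0.0372). vamp1, for a synaptic vesicle protein, had 329, 323 and 362 CPM at 8 hpl, against 801, 730.2 and 641 CPM at 0 hpl (log2 fold change −1.10 ± 0.19 SE, adjusted p = 0.0185). In these 3 genes the groups did not overlap. cplx4b, for a complexin, fell by 1.28 (adjusted p = 0.0377) and prkca, for a kinase of bipolar cells, by 1.17 (adjusted p = 0.0219). The amacrine markers summed to 668 to 745 CPM at 8 hpl and 743 to 997 CPM at 0 hpl. Of the 8, chata and tfap2b were called lower (25%, against 0.931% of all genes), and 2 had a positive log2 fold change. The 8 bipolar markers summed to 2628 to 3043 CPM at 8 hpl and 2432 to 2771 CPM at 0 hpl, while their median log2 fold change was −0.52, with 3 of 8 positive and none called by edgeR (4 lower at an unadjusted p under 0.05, 0 by DESeq2 and 0 by limma-voom). Each of these calls other than those of slc38a3a and gabrr1 ended without at least 1 of replicates 1, 2 and 3 of 8 hpl, replicates 1 and 3 of 16 hpl and replicates 1, 2 and 3 of 0 hpl (highest adjusted p 0.215). Whether carried-over RNA of neurons has a part in these falls was not tested.

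Some genes of surface epithelium and matrix fell. krt4, a keratin gene of the epidermis, was at 0.568, 1.17 and 0.761 CPM at 8 hpl, against 6.01, 8.40 and 5.24 CPM at 0 hpl (log2 fold change −2.97 ± 0.48 SE, adjusted p = 0.0127). col17a1a, for a collagen of epithelial anchoring, was at 2.50, 8.24 and 2.01 CPM at 8 hpl, against 19.98, 21.8 and 25.6 CPM at 0 hpl (log2 fold change −2.40 ± 0.49 SE, adjusted p = 0.0323). With COL1A2 (−1.97, adjusted p = 0.044) and lamc3 (−1.13, adjusted p = 0.0248), 3 of 42 collagen and laminin genes fell (7.14%, against 0.931% of all genes). In the list of matrix proteins and receptors 2 of 39 fell and 2 rose (5.13% each way), and the rises were crtac1a (7.19, adjusted p = 0.0087) and bgnb (1.73, adjusted p = 0.0476). The keratinocyte markers summed to 0.720 to 2.01 CPM at 8 hpl and 5.61 to 8.94 CPM at 0 hpl over 2 tested genes. esama, 1 of 3 endothelial markers (33.3%, against 0.931% of all genes), fell by 1.30 (adjusted p = 0.0311). The tight junction gene tjp2a was at 382, 551 and 416 CPM at 8 hpl, against 1104, 1287 and 837 CPM at 0 hpl (log2 fold change −1.26 ± 0.27 SE, adjusted p = 0.0395). The part of other cells in these values was not tested. The calls of these genes ended without at least 1 of replicates 1, 2 and 3 of 8 hpl, replicates 1 and 3 of 16 hpl and replicates 1, 2 and 3 of 0 hpl (highest adjusted p 0.203).

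**Figure D4:**
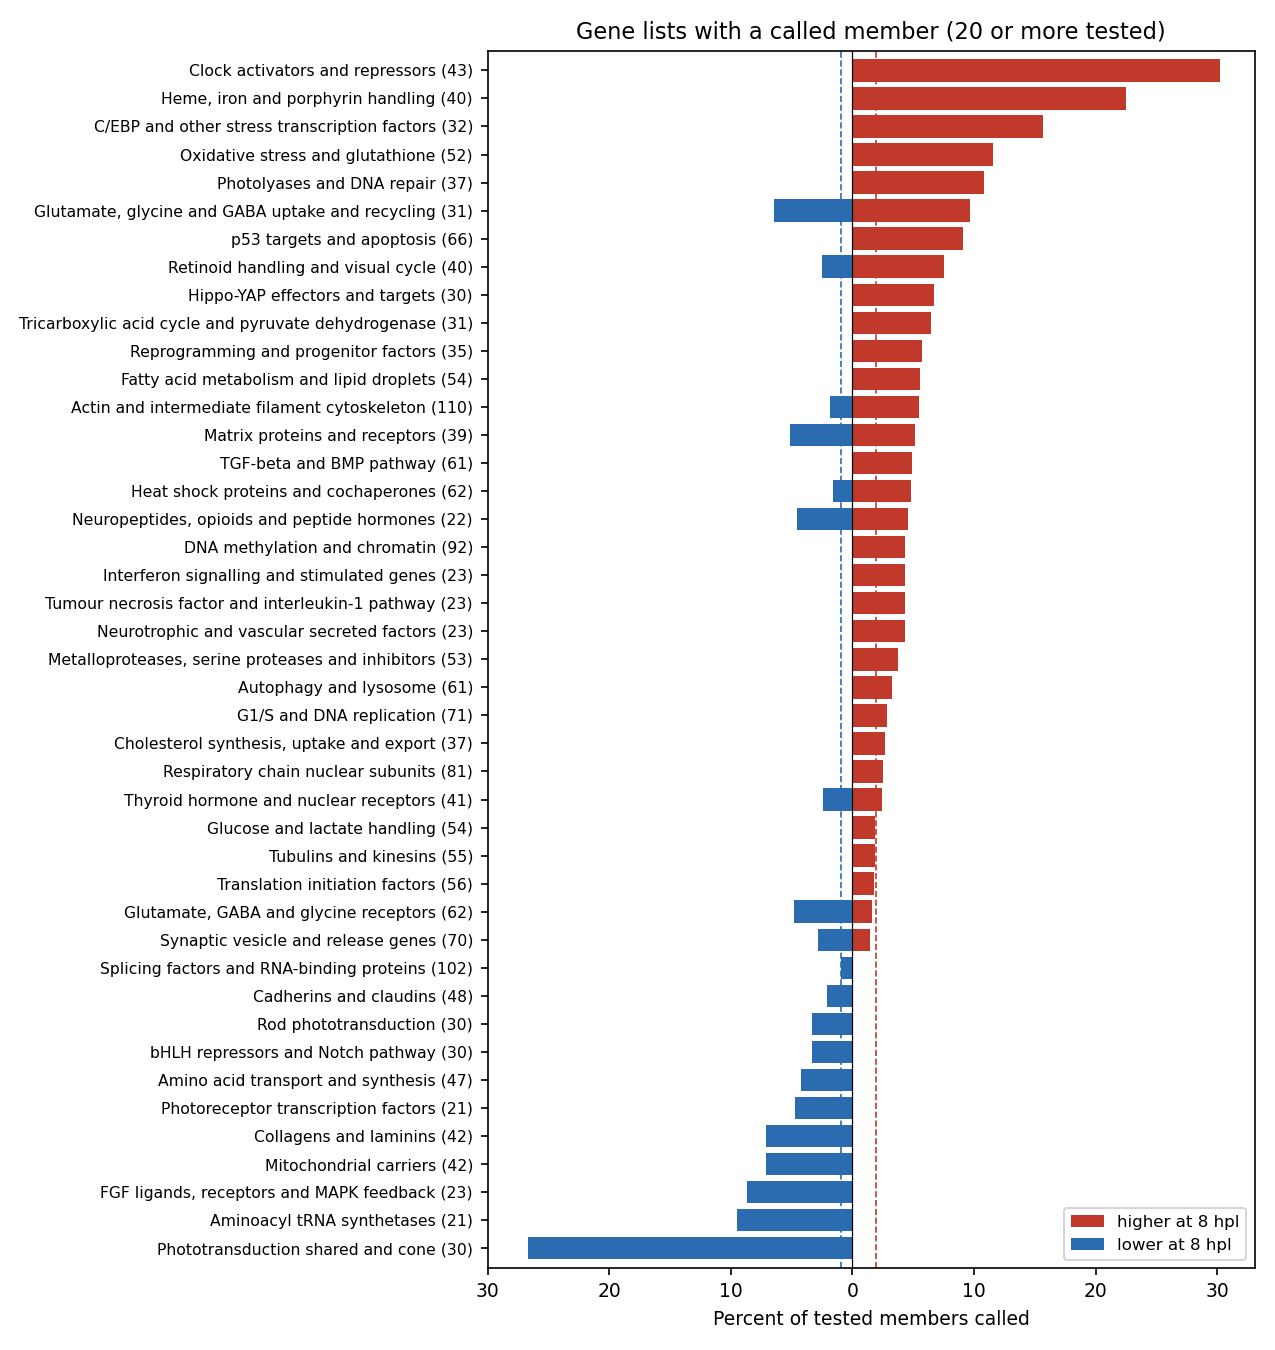
Percent of tested members called higher (right) and lower (left) in the 43 gene lists with 20 or more tested members and at least 1 call, with the number tested in brackets. Dashed lines mark all genes tested, 1.9% higher and 0.931% lower. The clock and the heme lists reach furthest to the right and the list of cone or shared phototransduction furthest to the left.

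Of the 65 gene lists, 16 had no called member. Over all genes tested 2.83% were called, so lists of the sizes below would hold few calls at that share. By the same edgeR test, 3219 of all 19875 genes had an unadjusted p under 0.05. The list of immediate-early and AP-1 factors, the first transcription factors of most stimuli, had 34 tested members and none called in edgeR's test, with 8 at an unadjusted p under 0.05, 5 called by DESeq2 and 0 by limma-voom. The 66 genes of G2/M and mitosis likewise had none, with 5 at an unadjusted p under 0.05, 2 by DESeq2 and 0 by limma-voom, and a median log2 fold change of −0.22. The 48 genes of the unfolded protein response had none called by edgeR, 9 at an unadjusted p under 0.05, 3 called by DESeq2 and 0 by limma-voom. The 39 proteasome genes had none called by edgeR, 12 at an unadjusted p under 0.05, 2 called by DESeq2 and 0 by limma-voom, and 34 of them had a negative log2 fold change.

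Of 35 tested members of the list of reprogramming and progenitor factors 2 rose (5.71%, against 1.9% of all genes). Among them was lin28a (5.99, adjusted p = 0.0346), which was near 0 CPM in all 6 libraries and called in 3 of the 9 fits without 1 library. ascl1a, for the proneural factor that Müller glia need to reprogram, was at 4.93, 3.14 and 5.55 CPM at 8 hpl, against 5.38, 4.87 and 2.51 CPM at 0 hpl and was not called (0.09, adjusted p = 0.963). Its log2 fold change turned to −0.45 without the 3 libraries that stand apart. RNA of neutrophils was scarce in all 6 libraries. The 5 tested neutrophil markers summed to 10.4 to 21.7 CPM at 8 hpl and 4.96 to 5.84 CPM at 0 hpl, with a median log2 fold change of 1.58 and none called by edgeR (2 at an unadjusted p under 0.05, 2 by DESeq2, 0 by limma-voom). The 7 tested markers of microglia and macrophages summed to 162 to 169 CPM at 8 hpl and 131 to 168 CPM at 0 hpl, with none called by edgeR (1 at an unadjusted p under 0.05, 1 by DESeq2, 0 by limma-voom). Of the untested markers of the same cells, the complement genes c1qa and c1qb had 1 count each at 8 hpl and 1 each at 0 hpl, c1qc had 1 at 8 hpl and 13 at 0 hpl, and the receptor gene csf1rb had 34 at 8 hpl and 23 at 0 hpl.

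The 3 libraries of 8 hpl did not show the rises in equal measure. Of the 378 genes that rose, 287 (75.9%) had replicate 2 nearest to 0 hpl, against 49 for replicate 1 and 42 for replicate 3. Over all genes tested, replicate 2 had the smallest difference in the direction of the fitted fold change in 49.6%. That share also counts libraries that lay on the other side of 0 hpl, so it is not a like background. The median log2 difference from the 0 hpl mean over the 378 genes was 1.82, 1.24 and 1.83 in replicates 1, 2 and 3. Among the 185 that fell, replicate 2 was nearest in 101 (54.6%), and the medians were −1.38, −1.21 and −1.37. At least a 4-fold spread over the 8 hpl libraries was seen in 34 called genes, and in all 34 replicate 2 was nearest to 0 hpl.

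The opposite order also occurred. Replicate 2 was the farthest from 0 hpl in 58 of the 378 genes that rose and 62 of the 185 that fell. The genes that rose in this way included ctgfa, ptgs2b, ddb2 and C5H8orf4 (2 of 2). The histone gene histh1l was at 707, 1188 and 739.7 CPM at 8 hpl, against 358, 365 and 333 CPM at 0 hpl (log2 fold change 1.32 ± 0.24 SE, adjusted p = 0.0234). The heat shock gene hsp70.3 was at 425, 583 and 442 CPM at 8 hpl, against 197, 218 and 292 CPM at 0 hpl (log2 fold change 1.04 ± 0.22 SE, adjusted p = 0.0367). Both belong to families of near-identical copies, whose reads may be shared. In 273 called genes, such as slx4, clpxb and lamp1, the 8 hpl libraries lay within 1.5-fold of each other. Genes with replicate 2 farthest, or with a wide or narrow spread, were not counted over all genes tested. Those counts therefore describe only the called genes. The calls of histh1l and hsp70.3 ended without at least 1 of replicates 1 and 3 of 8 hpl, replicate 1 of 16 hpl and replicates 1, 2 and 3 of 0 hpl (highest adjusted p 0.188).

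**Figure D5:**
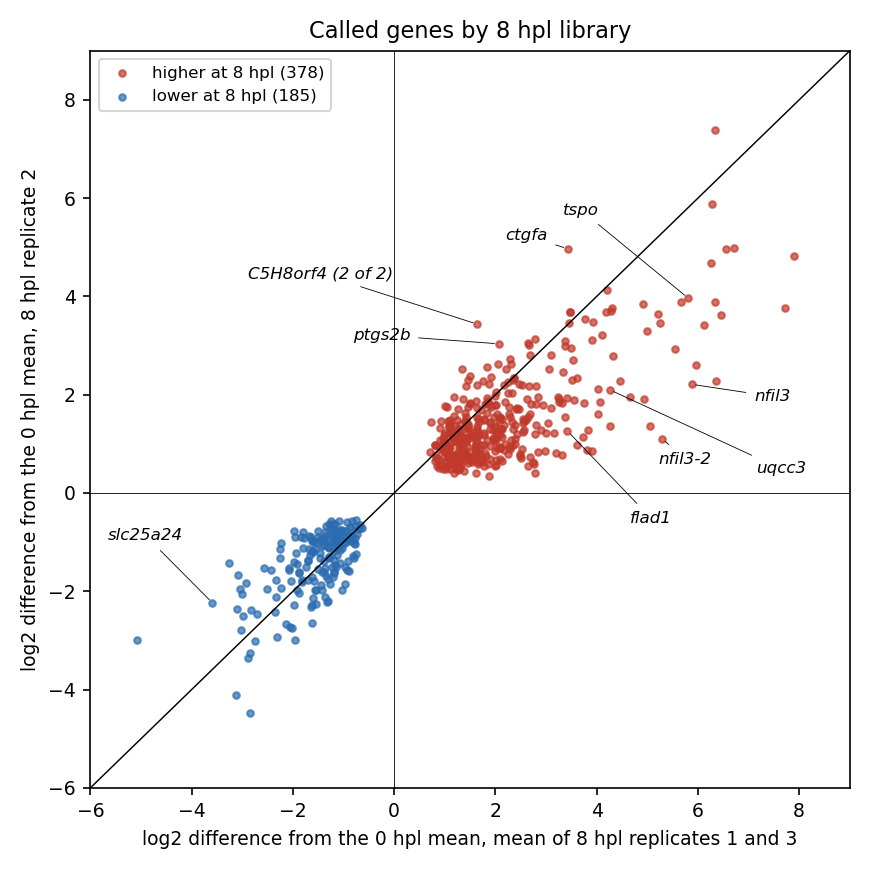
Each point is 1 of the 563 called genes, with the log2 difference from the 0 hpl mean averaged over 8 hpl replicates 1 and 3 on the horizontal axis and that of 8 hpl replicate 2 on the vertical axis. The diagonal marks equal values. Most genes that rose lie below it, such as nfil3 and flad1, and others such as ctgfa lie above.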

How the data were processed

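Stranded mRNA libraries were sequenced single-end, per the labels' protocols. The authors deposited expected counts per Ensembl gene and FPKM, both from RSEM per the labels. The submitters' processing notes name build Zv9 with RSEM 1.2.22 and Bowtie2 2.2.6, FastQC 0.10.1, cutadapt 1.4.2 with Trim Galore 0.2.7, and limma 3.24.15 and edgeR 3.10.2. Log2 fold changes and p-values of the authors' deposited table enter only a comparison in the closing section (no source used here states their model). The 9 columns used were matched to libraries by name, and 0 per-sample columns were left out. Symbols came from the deposited table (12581 genes) or the gene name table (9741), and 11415 genes had none.

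Expected counts were rounded. Genes were filtered with filterByExpr, leaving 19875, and tested with edgeR 4.0.16 (R 4.3.3): TMM factors, robust quasi-likelihood fit of all 9 libraries (6 residual degrees of freedom), contrast of 8 against 0 hpl, two-sided, Benjamini-Hochberg adjustment, threshold 0.05. CPM use the TMM-scaled library sizes. The SE is the absolute log2 fold change divided by the square root of F. Depth, 17551981 to 26608088 expected counts in the 6 libraries, limits the precision of genes of few counts. The script was tested on simulated data.

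Alternatives were the 6 libraries alone, DESeq2 1.42.0, limma-voom (limma 3.58.1), RLE and upper-quartile factors, no filter, a filter of 1 CPM in 3 libraries, dispersions that are not robust, the replicate number as a block, and leaving out each library. A fit without 3 libraries that stand apart, a fit without 8 hpl replicate 2 and 16 hpl replicate 2 together and voom with quality weights were added after seeing the data. Members and gene lists were chosen with earlier results of these data known, and lists were described by counts and medians with no set test. Promoter motifs were not analysed here.

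Genes were named by a written rule: the 20 largest non-overlapping changes in each direction with at least 5 CPM, the 15 smallest adjusted p-values, up to 6 called and 3 other members of each list, the 12 called genes of highest CPM, the 12 largest changes called in every fit without 1 library, and the leading cell type markers. Some genes that fall under this rule are not reported here. Chosen after their values were seen were ALKBH3 (2 of 2), arntl1a, arntl1b, ascl1a, C5H8orf4 (2 of 2), cbr1, clocka, clpxb, cnga3a, coq10b, coq5, coq7, cox17, cry4, csnk1e, dtx1, etfdh, flad1, gclm, gfap, glrx5, hccsa.1, hmox1a, il23r, impg1a, impg1b, klf11a, maml3, msrb1b, nfil3-2, nfs1, npas2, opn1lw1, opn1mw4, opn1sw2, prkca, ptgs2b, sdhaf1, sdhaf4, selj, sipa1l2, slc23a2, slc5a7a, slx4, spg7, steap4, tdh, urod, wee1, xirp1, yme1l1a and zgc:109934.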

Additional observations from a re-analysis of the deposited data

How the results depend on the processing

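The number of genes called, 563, moved by over 1.5 times in several alternatives. It was 1008 with the 6 libraries of 8 and 0 hpl alone, 1484 with DESeq2, 147 with the replicate block, 1035 without the 3 libraries that stand apart, 4125 without 8 hpl replicate 2 and 16 hpl replicate 2 together and 5516 with voom quality weights, which gave 8 hpl replicate 2 a weight of 0.241 and replicates 1 and 3 weights of 2.64 and 1.89. Members of the gene lists called, 144 in all, were 248, 330, 55, 240, 774 and 972 under the same 6 settings in the same order. Leaving out 1 library gave between 95 and 1320 genes called and between 34 and 301 list members called. The other alternatives stayed within 1.5 times of both counts, with 460 genes by limma-voom, 568 and 551 with RLE and upper-quartile factors, 567 without the filter on low counts, 594 with the filter of 1 CPM and 562 with dispersions that are not robust. The cause of these moves was not tested.

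The labels do not say whether replicate numbers pair the samples. Deviations from the group means of same-numbered libraries of the 2 groups correlated at −0.01, 0.12 and 0.06 over genes. Those of unlike-numbered libraries correlated at −0.111 to 0.0997. With so few libraries these correlations cannot decide whether the samples were paired. Of the 563 genes, 145 were among the 147 called with the replicate block. The authors' deposited table lists 5852 of 15530 genes at an adjusted p under 0.05, among them all 544 of the 563 genes that it holds. Its log2 fold changes differed from those of voom with quality weights by a median of 0.01.

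All 563 genes kept their direction in each alternative that tested them. Of 217 named genes that were called, 137 missed the threshold with the replicate block, 68 without the 3 libraries that stand apart, 44 with limma-voom, 21 without the filter, 10 with upper-quartile factors, 5 with the 6 libraries alone, 3 with RLE factors and 3 with dispersions that are not robust. With DESeq2, the filter of 1 CPM, quality weights or both replicates 2 left out 0 missed it. Without 8 hpl replicate 1, 2 or 3 the number was 151, 6 and 150, without 16 hpl replicate 1, 2 or 3 it was 74, 1 and 22, and without 0 hpl replicate 1, 2 or 3 it was 161, 157 and 143.

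Among the named genes refitted under each alternative, those that changed direction were not called. Leaving aside the fit without the 3 libraries that stand apart, the log2 fold change of ascl1a ran from −0.18 to 0.30. The ends were without 0 hpl replicate 3 and without 8 hpl replicate 2, and it was −0.077 without 8 hpl replicate 3. Without the 3 libraries that stand apart, rlbp1a had 0.15, ascl1a −0.45, rbp4l −0.25, irbp −0.16 and arr3a −1.36.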

Other observations

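Chromatin regulators gave 4 rises among 92 tested genes (4.35%, against 1.9% of all genes called higher), with a median log2 fold change over the list of 0.00. dot1l, for a histone H3 methyltransferase, was at 50.2, 39.4 and 42.6 CPM at 8 hpl, against 16.1, 17.3 and 20.1 CPM at 0 hpl (log2 fold change 1.30 ± 0.22 SE, adjusted p = 0.0171). kat8, for a histone acetyltransferase, was at 213, 92.4 and 219 CPM at 8 hpl, against 64.5, 58.98 and 66.9 CPM at 0 hpl (log2 fold change 1.46 ± 0.29 SE, adjusted p = 0.0303). The other calls were kdm1a (1.01, adjusted p = 0.0365), for a histone demethylase, and jarid2a (0.96, adjusted p = 0.0344), for a partner of Polycomb complex 2. The 8 hpl libraries of dot1l were close together, and in kat8 replicate 2 lay nearest to 0 hpl.

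Among other transcriptional regulators, epas1b, for a hypoxia-inducible factor, was at 55.54, 50.1 and 51.2 CPM at 8 hpl, against 12.9, 16.9 and 23.05 CPM at 0 hpl (log2 fold change 1.57 ± 0.31 SE, adjusted p = 0.0308). nrip1b, for a corepressor of nuclear receptors, was at 177, 102 and 173 CPM at 8 hpl, against 39.5, 35.6 and 41.8 CPM at 0 hpl (log2 fold change 1.95 ± 0.29 SE, adjusted p = 0.00894), and foxo1b rose by 1.89 (adjusted p = 0.028). Both the epas1b and the nrip1b libraries of 8 hpl lay above all of 0 hpl. In translation, eif4e3, for a cap-binding factor, was at 140.2, 81.3 and 118 CPM at 8 hpl, against 29.8, 33.02 and 37.9 CPM at 0 hpl (log2 fold change 1.75 ± 0.24 SE, adjusted p = 0.00559). The small heat shock gene cryaba was at 0.493, 0.482 and 0.313 CPM at 8 hpl, against 3.21, 2.64 and 7.01 CPM at 0 hpl (log2 fold change −3.29 ± 0.58 SE, adjusted p = 0.0186), while msmo1, for an enzyme of cholesterol synthesis, rose by 1.24 (adjusted p = 0.0248) and ulk1b, for a kinase that starts autophagy, by 1.14 (adjusted p = 0.0366). Each of these calls ended without at least 1 of replicates 1 and 3 of 8 hpl, replicate 1 of 16 hpl and replicates 1, 2 and 3 of 0 hpl (highest adjusted p 0.169).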
